A study of Rattus norvegicus with 16 samples.

Results

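The 9 rat genes of MHC class II antigen presentation described here are RT1-Ba, RT1-Bb, RT1-Da, RT1-Db1, RT1-DMa, RT1-DMb, Cd74, Ciita and Ctss. They were chosen by name, as the probes whose RefSeq accession on the array belongs to one of these symbols. That rule used no measured value, but the genes were named with earlier results of these data known. They are 9 of the 15159 genes and 11 of the 30367 probes measured, since RT1-Bb and RT1-Db1 have 2 probes each. Transcript levels were measured in normal distal colon of 16 male rats on single-colour Agilent arrays, 1 array per rat and 4 rats in each of 4 groups. All rats were (ACIxF344)F1 hybrids of an ACI mother and an F344 father and were 97 days old, so every rat carries the RT1 alleles of both strains. The rats were either wildtype or Pirc/+, which means heterozygous for a truncating allele of the tumor suppressor gene Apc. In each genotype 4 rats were untreated, and 4 drank 4% dextran sodium sulfate (DSS, 500,000 MW), which injures and inflames the colon, on days 40 to 47 and again on days 54 to 61. Tissue was taken 36 days after the last DSS, so the comparisons show the state at that time, not the response during exposure.

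Class II molecules are pairs of an alpha and a beta chain that display peptides taken up from outside the cell to CD4 T cells. RT1-Ba and RT1-Bb encode the 2 chains of the rat RT1.B molecule, and RT1-Da and RT1-Db1 those of RT1.D. Cd74 encodes the invariant chain, which fills the binding groove until cathepsin S, the product of Ctss, trims it in the endosome and the RT1-DM pair exchanges the remnant for a peptide. Ciita encodes the transactivator that is recruited to the promoters of these genes. In the gut, dendritic cells, macrophages and B cells carry class II constitutively, and interferon gamma can induce it on epithelium.

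The class II promoters share a signature, an X box bound by RFX and a Y box bound by NF-Y, on which CIITA acts. RefSeq windows (GRCr8) from 250 bases before to 50 bases after the start were given for 7 of the 9 members, the exceptions being RT1-DMb and Ciita. These windows were searched on both strands for ACNGATG, a core of the X box, and for ATTGG, the core of the Y box. The 2 motifs share no position in any printed window. The stretch around the Y box is shown for the 5 RT1 members with a window, to set the 4 that hold both cores in the usual order beside RT1-Ba, which does not. Each is written 5′ to 3′ on the strand of the gene, with the matches in capitals. They lie at chr20:4515326-4515380 (plus strand) for RT1-Da, chr20:4560228-4560282 (minus) for RT1-Db1, chr20:4604165-4604219 (minus) for RT1-Bb, chr20:4576974-4577028 (plus) for RT1-Ba and chr20:4712385-4712439 (minus) for RT1-DMa.
RT1-Da: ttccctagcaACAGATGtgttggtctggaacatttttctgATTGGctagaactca
RT1-Db1: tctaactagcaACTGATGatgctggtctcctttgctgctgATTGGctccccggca
RT1-Bb: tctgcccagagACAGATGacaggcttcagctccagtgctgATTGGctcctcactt
RT1-Ba: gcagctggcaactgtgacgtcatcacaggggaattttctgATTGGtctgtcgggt
RT1-DMa: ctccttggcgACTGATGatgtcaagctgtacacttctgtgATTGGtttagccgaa

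In RT1-Da, RT1-Db1, RT1-Bb and RT1-DMa the X core preceded the Y core on the gene's strand, with 22 or 23 bases between them. That order with 10 to 30 bases between the cores was found in 0.158% of all 33469 promoter windows, whereas 10.2% held the X core and 37.5% the Y core alone or together. RT1-Ba held the Y core and no match to these X letters, and Cd74 held the Y core on the opposite strand only. Ctss held both cores, but without that order and spacing. A match of letters describes the window and does not show binding. As given below, 3 of the 4 members with the spaced pair were called higher after DSS over both genotypes, and RT1-DMa was not. Of all probes, 5% were called higher in that comparison. Cd74, without the pair, was called higher as well (log2 change 1.19), whereas Ctss, also without it, was not (-0.26). RT1-DOb, which is not a member but holds the pair, was not called higher (0.28). Whether the pair goes with the change after DSS was not tested.

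A level is given here as the log2 of a probe's background-subtracted signal over the 75th percentile of its array, so that 0 is that percentile and 1 unit is a factor of 2. Levels of different probes cannot be set against each other, because probes differ in brightness. A gene with 2 probes is represented by the brighter probe. A difference passed where the adjusted p of limma (Benjamini-Hochberg over all 30367 probes) was 0.05 or less, and was called where it also reached a factor of 2. Between 71.1% and 80.3% of spots were well above background on each array, and no spot was saturated. The epithelial markers Epcam, Vil1, Cdx2 and Car1 were well above background on all 16 arrays, as the labelled tissue would have it. The arrays lay on 2 slides with 2 rats of each group on each slide, but every group occupied 1 column of array positions, so that group and column cannot be told apart. Values are listed in the order of rats 13, 17, 21 and 25 (untreated wildtype), 14, 18, 22 and 26 (DSS-treated wildtype), 11, 15, 19 and 23 (untreated Pirc) and 12, 16, 20 and 24 (DSS-treated Pirc).

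The chains of the class II molecules that could be measured, and the invariant chain, were more than 2-fold higher after DSS. Over both genotypes 4 of the 9 genes were called higher (RT1-Bb, RT1-Da, RT1-Db1 and Cd74) and none was called lower, and 6 of the 11 probes were called higher. Of all probes, 5% were called higher in that comparison, and 2.97% of the 18759 probes well above background on all arrays. The median log2 change was 0.96 over the 8 genes with a measurable level and 0.06 over all probes. RT1-DMa, RT1-DMb, Ciita and Ctss did not pass. More cells that carry class II and more class II RNA per cell cannot be told apart in these tissue samples. The change was present on both slides, with log2 values on slides 1 and 2 of 1.40 and 1.15 for RT1-Da, 1.38 and 1.21 for RT1-Db1, 1.33 and 1.05 for Cd74 and 1.10 and 1.06 for RT1-Bb.

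**Figure D1:**
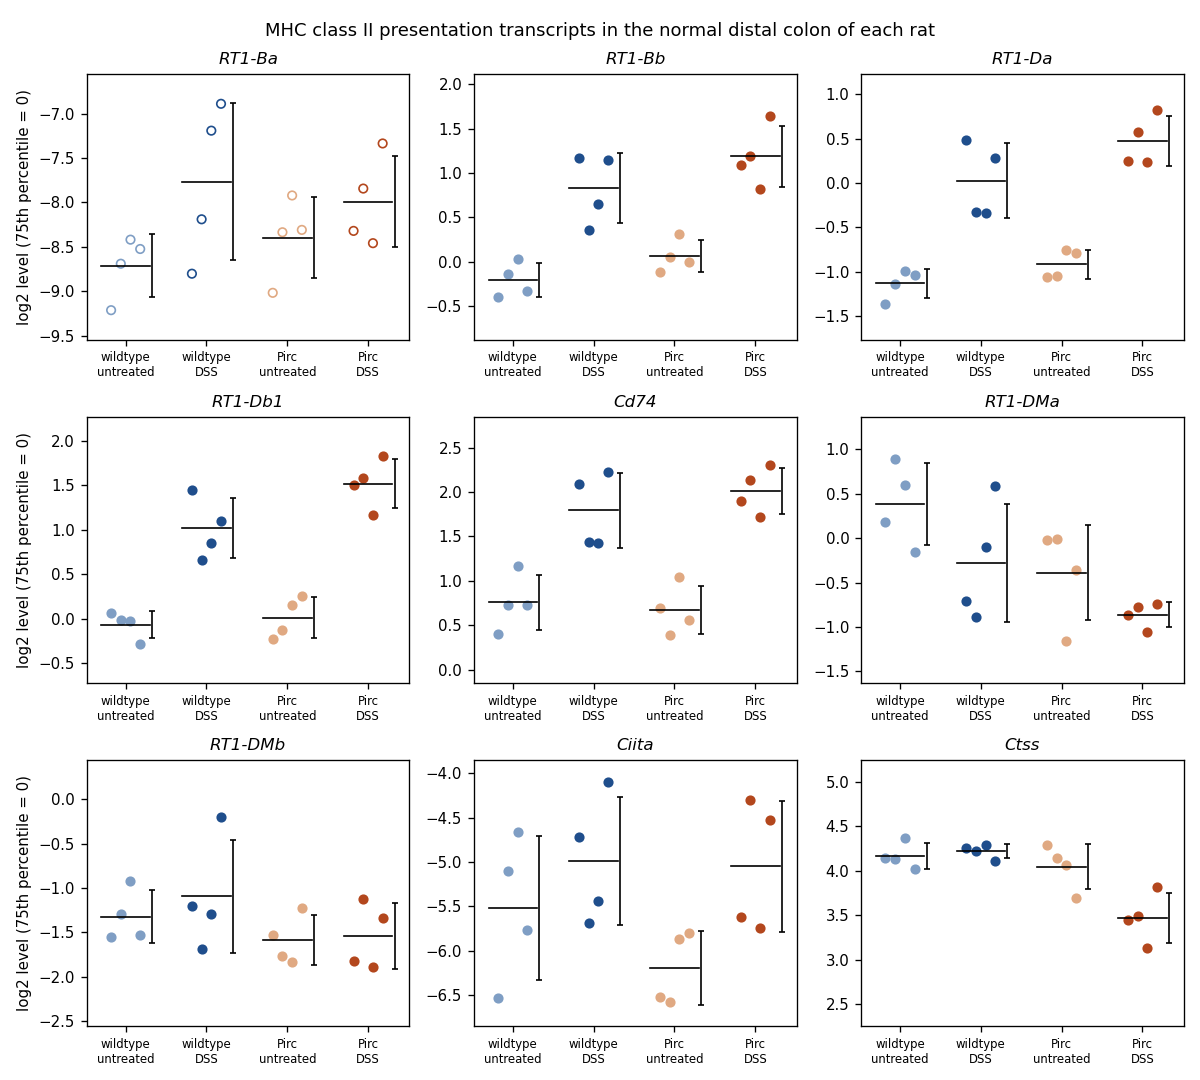
Each panel gives 1 gene, with the 4 groups on the horizontal axis and the log2 level relative to the array's 75th percentile on the vertical axis. Points are rats (open where the probe was not well above background), the line is the group mean and the bar its SD (n = 4), and RT1-Bb, RT1-Da, RT1-Db1 and Cd74 show no overlap between untreated and DSS-treated rats.

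Cd74 stood at log2 levels of 0.40, 0.73, 1.17 and 0.73 in untreated wildtype rats and at 2.09, 1.44, 1.43 and 2.23 after DSS. The Pirc rats stood at 0.70, 0.39, 1.04 and 0.56 without DSS and at 1.90, 2.13, 1.71 and 2.30 after DSS. Every treated rat was above every untreated rat of either genotype. The increase was 2.28-fold over both genotypes (log2 change 1.19, SE 0.16, adjusted p = 0.000148). It was 2.06-fold in wildtype rats (log2 1.04, SE 0.22, adjusted p = 0.0193) and 2.54-fold in Pirc rats (log2 1.34, SE 0.22, adjusted p = 0.00122).

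RT1-Da, the alpha chain of RT1.D, stood at -1.36, -1.13, -0.99 and -1.04 in untreated wildtype rats and at 0.48, -0.33, -0.34 and 0.29 after DSS. Pirc rats had levels of -1.06, -1.05, -0.75 and -0.79 without DSS and of 0.25, 0.57, 0.24 and 0.83 after DSS. The lowest treated rat, at -0.34, was above the highest untreated rat, at -0.75. Rats 18 and 22 lay below the other treated rats. The log2 change was 1.27 (SE 0.14, adjusted p = 3.96e-05), with 1.16 in wildtype rats (adjusted p = 0.00603) and 1.39 in Pirc rats (adjusted p = 0.000445).

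RT1-Db1, the beta chain of RT1.D, stood at 0.06, -0.02, -0.03 and -0.28 in untreated wildtype rats and at 1.45, 0.66, 0.86 and 1.10 after DSS. The corresponding levels in Pirc rats were -0.24, -0.13, 0.15 and 0.26 without DSS and 1.50, 1.58, 1.16 and 1.83 after DSS. Treated and untreated rats did not overlap. Of the members this gene had the smallest p, ranking number 96 of the 30367 probes. The increase was 2.46-fold over both genotypes (log2 1.30, SE 0.13, adjusted p = 2.56e-05). It was 2.84-fold in Pirc rats (log2 1.51, adjusted p = 0.000191) and 2.12-fold in wildtype rats (log2 1.09, adjusted p = 0.00603). The second RT1-Db1 probe gave log2 changes of 1.11 in Pirc rats and 0.996 in wildtype rats (adjusted p = 0.00502), so that in wildtype rats it passed by p and lay just under a factor of 2.

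RT1-Bb, the beta chain of RT1.B, stood at -0.40, -0.14, 0.03 and -0.33 in untreated wildtype rats and at 1.17, 0.36, 0.65 and 1.14 after DSS. In Pirc rats it stood at -0.11, 0.06, 0.31 and -0.01 without DSS and at 1.09, 1.19, 0.82 and 1.64 after DSS. The lowest treated rat, 18 at 0.36, was close to the highest untreated rat, 19 at 0.31, and the groups did not overlap. The log2 change was 1.08 (SE 0.15, adjusted p = 0.000154), with 1.04 in wildtype rats (adjusted p = 0.0123) and 1.13 in Pirc rats (adjusted p = 0.00219). Its second probe gave 0.92 in wildtype rats (adjusted p = 0.0229), short of a factor of 2, and 1.13 in Pirc rats. The RT1-B and RT1-D loci are polymorphic and have near relatives, and the match of each probe to the ACI and F344 alleles and to related genes was not tested.

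RT1-Ba, the alpha chain partner of RT1-Bb, gave no usable level. Its single probe passed the scanner's test against background in 0 of 16 rats, and its values ran from -9.21 to -6.89. No fold is given for it, and the array therefore says nothing of whether both chains of RT1.B moved together.

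RT1-DMa and RT1-DMb encode the peptide exchange factor of the endosome, and neither passed as higher after DSS. RT1-DMa stood at 0.18, 0.90, 0.60 and -0.15 in untreated wildtype rats and at -0.71, -0.89, -0.10 and 0.58 after DSS. In Pirc rats it stood at -0.03, -0.01, -1.16 and -0.36 without DSS and at -0.87, -0.78, -1.06 and -0.74 after DSS. The groups overlapped. Treated wildtype rats 22 (-0.10) and 26 (0.58) lay above untreated wildtype rat 25 (-0.15). Untreated Pirc rat 19 (-1.16) lay below every treated Pirc rat. The log2 difference after DSS was -0.57 (95% interval -1.06 to -0.07, adjusted p = 0.115). It was -1.07 among the 8 rats of slide 1 and -0.06 among the 8 of slide 2. Without rat 26 the difference was -0.71 (adjusted p = 0.0271) and without rat 19 it was -0.70 (adjusted p = 0.0438), so that a lower RT1-DMa level after DSS passed or did not pass according to single rats.

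RT1-DMb ranged from -1.55 to -0.92 in untreated and from -1.69 to -0.20 in DSS-treated wildtype rats. The range in Pirc rats was -1.83 to -1.22 without DSS and -1.89 to -1.12 after DSS. All groups overlapped. The log2 difference after DSS was 0.14 (95% interval -0.29 to 0.56, adjusted p = 0.730), and without rat 26, the highest rat at -0.20, it was -0.013. The upper bound of the interval lay below the log2 change of each of the 4 called genes.

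Ciita stood at -6.54, -5.10, -4.66 and -5.77 in untreated wildtype rats and at -4.72, -5.68, -5.44 and -4.09 after DSS. Levels in Pirc rats were -6.52, -6.58, -5.87 and -5.80 without DSS and -5.62, -4.30, -5.74 and -4.53 after DSS. Within Pirc rats treated and untreated rats did not overlap, but within wildtype rats they did. The spread among rats was wide, with an SD of 0.82 in untreated wildtype rats. The log2 difference after DSS was 0.84 over both genotypes (SE 0.32, adjusted p = 0.0903), 1.14 in Pirc rats (SE 0.45, adjusted p = 0.110) and 0.53 in wildtype rats (SE 0.45, adjusted p = 0.645). None of these passed, although the point estimate in Pirc rats was above a factor of 2. That estimate depended on the processing. Untreated rats 11, 13 and 15 lay below the common floor of -6.22 that was used as an alternative, and with that floor the Pirc estimate was 0.98. With normexp the Pirc estimate was 0.59, and the difference over both genotypes was 0.43. The highest Pirc estimate among the alternatives was 1.38.

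**Figure D2:**
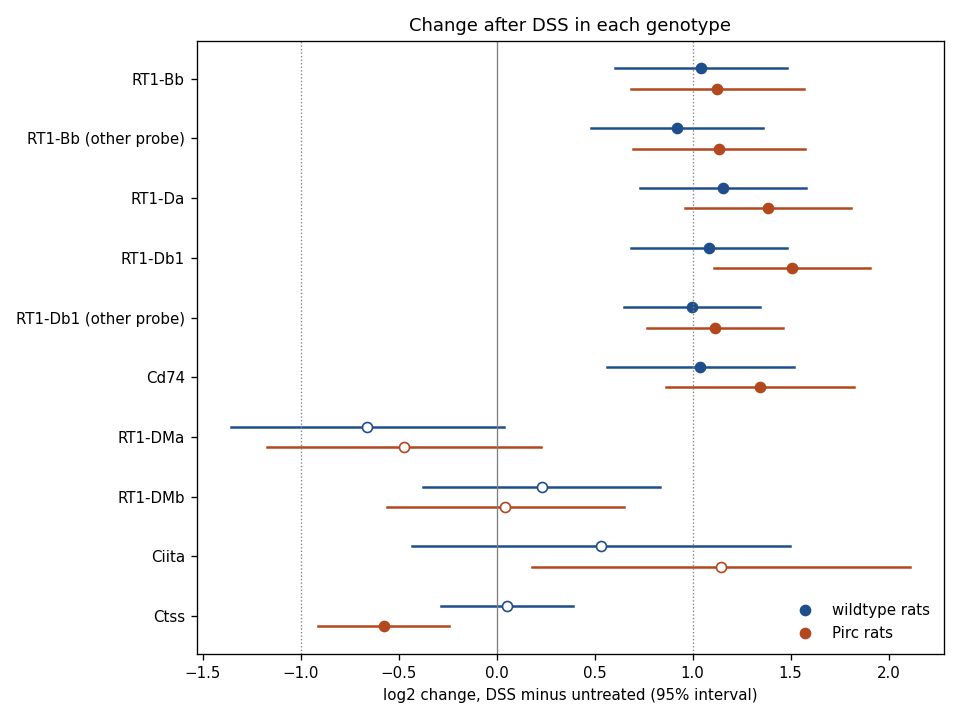
The horizontal axis gives the log2 change after DSS with its 95% interval from the fit to all 16 arrays, for each measurable member and second probe (vertical axis) in wildtype and in Pirc rats. Filled points passed at an adjusted p of 0.05 and dotted lines mark a factor of 2. The chain probes lie between 0.92 and 1.51, and Ctss passed in Pirc rats only, at -0.58.

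Within single genotypes the same 4 genes were called higher. In Pirc rats 4 of 9 genes and 6 of 11 probes were called higher, beside 5.51% of all probes, and the median log2 change of the 8 measurable genes was 1.14 beside 0.04 over all probes. In wildtype rats 4 genes and 4 probes were called higher, beside 2.37% of all probes, with a median of 0.79 beside 0.09. By adjusted p alone 6 member probes were higher in each of the 3 DSS comparisons. The shares of all probes that were higher by p alone were 10.2% over both genotypes, 8.14% in Pirc rats and 2.94% in wildtype rats. The comparisons share rats and are not independent of each other. In the wildtype comparison 2 genes remained called (RT1-Da and RT1-Db1) where only the 8 wildtype arrays were fitted. In the fit to all arrays, without treated rat 14 only RT1-Da was called, and without untreated rat 13 or treated rat 26 only RT1-Da and RT1-Db1 were.

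The log2 change after DSS was larger in Pirc than in wildtype rats by 0.42 for RT1-Db1 (95% interval -0.14 to 0.99), 0.30 for Cd74 (-0.38 to 0.98), 0.23 for RT1-Da (-0.37 to 0.83) and 0.08 for RT1-Bb (-0.54 to 0.71). None of these differences passed, with adjusted p from 0.593 to 0.959. Of all probes, 0.0428% were called for a difference between the DSS effects, and no member was. By unadjusted p, 1 of the 8 measurable members, Ctss, was under 0.05, beside 3234 of the 30367 probes.

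Ctss, the protease that trims the invariant chain, was the only member with a passed difference that went down. It stood at 4.14, 4.13, 4.37 and 4.02 in untreated wildtype rats and at 4.26, 4.22, 4.29 and 4.11 after DSS. In Pirc rats it stood at 4.29, 4.14, 4.06 and 3.70 without DSS and at 3.45, 3.49, 3.12 and 3.81 after DSS. All 4 treated Pirc rats were below all 8 wildtype rats, and rat 24 overlapped with the untreated Pirc rats. Ctss was at 0.594 times the wildtype level among DSS-treated rats (log2 -0.75, SE 0.16, adjusted p = 0.00613) and at 0.670 times its untreated level in Pirc rats (log2 -0.58, SE 0.16, adjusted p = 0.0235). In wildtype rats the log2 difference after DSS was 0.05 (95% interval -0.29 to 0.39). The test of the difference between the 2 DSS effects gave -0.63 (SE 0.22, unadjusted p = 0.0130, adjusted p = 0.337), so a difference between the genotypes in the effect of DSS on Ctss was not established across all probes. All of its changes were smaller than a factor of 2. The decrease in Pirc rats no longer passed where only the 8 Pirc arrays were fitted (adjusted p = 0.123) or without any 1 of rats 11, 12, 15, 19 and 20 (adjusted p from 0.0525 to 0.080). Of all probes, 6.51% were lower by p alone after DSS in Pirc rats, 6.99% over both genotypes and 0.899% in wildtype rats.

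Between genotypes none of RT1-Bb, RT1-Da, RT1-Db1 and Cd74 passed. In untreated rats no probe on the array was called between Pirc and wildtype (0% of probes, with 3103 at an unadjusted p under 0.05 and 0 called without variance moderation), and the 4 chain genes differed by log2 values from -0.09 for Cd74 to 0.27 for RT1-Bb. By unadjusted p, 1 member, RT1-DMa, was under 0.05, at -0.77 (adjusted p = 0.436). Over both treatments 0 members were called beside 2% of all probes, and only Ctss passed by p (log2 -0.44, SE 0.11, adjusted p = 0.0157). By p alone 8.27% of probes were lower and 9.26% higher in that comparison. RT1-DMa was next, at -0.68 (adjusted p = 0.0571), and 5 of the 8 measurable members had an unadjusted p under 0.05, beside 9336 of the 30367 probes.

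Among DSS-treated rats 0 members were called between the genotypes, beside 5.47% of all probes. Ctss passed by p alone, in the direction of 8.76% of all probes that were lower, while 9.47% of all probes were higher. The chain genes had higher means in treated Pirc than in treated wildtype rats, by 0.50 for RT1-Db1 (adjusted p = 0.0763), 0.45 for RT1-Da (adjusted p = 0.136), 0.36 for RT1-Bb (adjusted p = 0.263) and 0.22 for Cd74 (adjusted p = 0.536). None passed. RT1-Db1 passed in that comparison without rat 14 (0.65, adjusted p = 0.0341) and where dim probes were left out (adjusted p = 0.0453). For each of the 4 chain genes the order of the means therefore placed both treated groups above both untreated groups. Within a treatment no difference between the genotypes passed for these genes.

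Each rat's class II level was shared across the chains. After subtracting each group's mean, the 4 called genes were correlated over the 16 arrays with Pearson r from 0.58 (RT1-Db1 with Cd74) to 0.88 (RT1-Bb with RT1-Da). These points come from the same arrays and share their scaling. Rats 14 and 26 had the highest mean of the 4 genes among treated wildtype rats, and rat 24 among treated Pirc rats.

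Against the mean of these 4 genes, 4 relations were computed for the remaining members, with rats permuted within their groups 100000 times (two-sided). Ciita followed the chains within groups with r = 0.82 and Spearman rho = 0.82 (permutation p = 0.000720 and 0.000600, Benjamini-Hochberg 0.00288 and 0.00240), and r was 0.83 without rats 13 and 26. In 16 of 16 rats Ciita and the chain mean deviated from their group means in the same direction. The r was 0.70 within slide 1 and 0.91 within slide 2, with 8 arrays each. Ciita left a gap between -0.25 and 0.26, and within the 8 rats below and the 8 rats above that gap r was 0.42 and -0.05. A split on Ciita itself narrows its range and lowers r. These 2 values therefore cannot show whether the relation held within either side of the gap. RT1-DMb gave r = 0.63 (rho = 0.64, permutation p = 0.0404 and 0.0323, adjusted 0.0808 and 0.0646), and r was 0.61 without rats 16 and 26. Ctss gave r = 0.30 (rho = 0.19, permutation p = 0.280 and 0.477, adjusted 0.373 and 0.636; r = 0.22 without rats 20 and 23). RT1-DMa gave r = 0.14 (rho = 0.13, permutation p = 0.692 and 0.674, adjusted 0.692 and 0.674; r = 0.15 without rats 19 and 26).

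**Figure D3:**
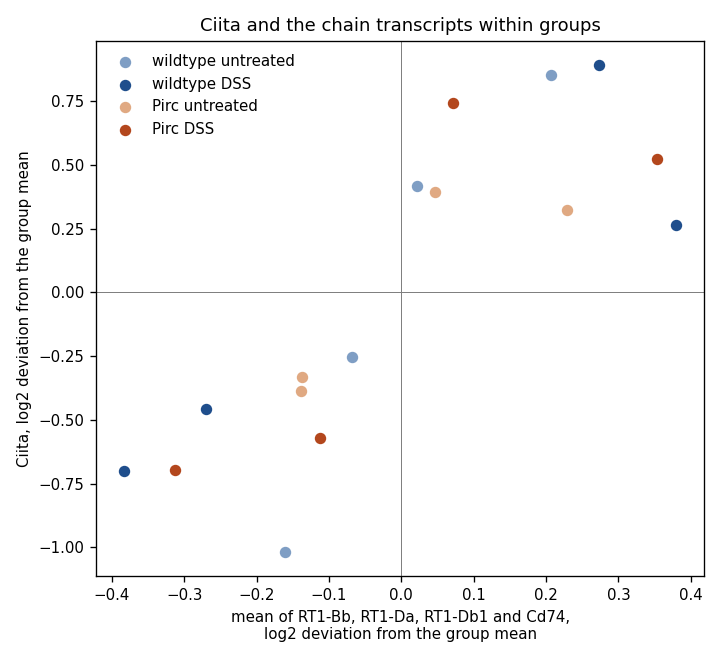
Each of the 16 points is 1 rat. The horizontal axis is the mean of RT1-Bb, RT1-Da, RT1-Db1 and Cd74 and the vertical axis is Ciita, both as log2 deviations from the group mean. All points lie in the lower left or upper right part of the plane, with r = 0.82.

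Of the 9927 genes searched, those most like the mean of the 4 chains within groups were Pde7a (r = 0.81), Tmco6 (0.81), Pla1a (0.78), Ltb (0.77), Ing4 (0.76), Grk5 (0.74), Cacna1h (0.74) and Golga3 (0.73), each over 16 arrays. They were picked as the highest of many, and their r is a description. Ltb, which encodes lymphotoxin beta, was 1.21 higher on the log2 scale after DSS (adjusted p = 0.000697), whereas Pde7a, which encodes a cAMP phosphodiesterase, fell by 0.70 (adjusted p = 0.0111). The DSS differences of the other 6 lay between -0.15 for Golga3 and 0.22 for Grk5 and did not pass.

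Genes that act with class II did not move as a block after DSS. Over both genotypes 10.2% of all probes were higher and 6.99% lower by adjusted p alone. These shares stand beside the counts of all pathway and cell type lists below. Of the 7 genes of the promoter complex (the RFX subunits, the NF-Y subunits and Creb1), 0 passed, with a median log2 difference of -0.21, and 6 of the 7 were well above background on all arrays. Of the accessory chains, RT1-DOb (0.28, adjusted p = 0.232) and RT1-DOa (-0.51, adjusted p = 0.230, well above background on 13 arrays) did not pass. Both belong to the DO pair, which restrains DM. RT1-DOa passed as lower in Pirc rats over both treatments (-1.04, adjusted p = 0.0148). RT1-DOb and RT1-Db2 were the accessory chains whose promoter windows held the spaced X and Y cores, and RT1-Db2 and RT1-Hb had no matched probe.

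Of the 9 genes of the interferon gamma route that induces Ciita, 2 passed as higher and 0 as lower, with a median of 0.13. Socs1, an inhibitor of the pathway, was higher by 0.79 (adjusted p = 0.00267) and Irf8 by 0.36 (adjusted p = 0.0160). Irf1, a transcription factor of the pathway, differed by 0.45 (adjusted p = 0.109). Ifng itself was well above background on 0 arrays.

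Of the 10 endosomal proteases and their partners, 3 passed as higher and 2 as lower, with a median of 0.08. Ctsl, a cathepsin that can process the invariant chain in thymic epithelium, was higher by 1.21 (adjusted p = 0.000218), Lgmn by 0.62 (adjusted p = 0.0193) and Ctsz by 0.50 (adjusted p = 0.0331). Cst3, the cystatin that inhibits cathepsins, fell by 0.47 (adjusted p = 0.00254) and Ctsh fell by 0.29 (adjusted p = 0.0420). Ctsl passed as higher in Pirc rats (1.39, adjusted p = 0.00153) and in wildtype rats (1.02, adjusted p = 0.0285), and the difference between these changes did not pass (0.36, adjusted p = 0.757).

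Of the 3 genes of class II turnover, Cd83, which opposes the ubiquitin ligase March1, fell by 1.18 (adjusted p = 0.000131), and 0 passed as higher. The ligase genes Marchf1 and Marchf8 differed by 0.22 and -0.20 over both genotypes and did not pass. Marchf8 passed as lower after DSS in Pirc rats (-0.55, adjusted p = 0.0284) but not in wildtype rats (0.16, adjusted p = 0.701). The difference between these changes did not pass (-0.71, adjusted p = 0.290). Among DSS-treated rats Marchf8 was lower in Pirc than in wildtype rats (-0.80, adjusted p = 0.00441). Among 6 measured costimulatory genes 2 passed as higher and 0 as lower. Cd40 rose by 1.25 (adjusted p = 8.42e-05) and was well above background on 15 arrays, whereas Cd274 was so on 7. The costimulatory genes Cd80 (-0.52, adjusted p = 0.264) and Cd86 (-0.25, adjusted p = 0.255) did not pass. They were well above background on 15 and 16 arrays. On the T cell side, Cd4, the coreceptor that binds class II, differed by 0.33 (adjusted p = 0.0895) and Lag3, an inhibitory receptor for class II, by 0.34 (adjusted p = 0.289). Icos was the only 1 of the 6 that passed, and it was well above background on 7 arrays.

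**Figure D4:**
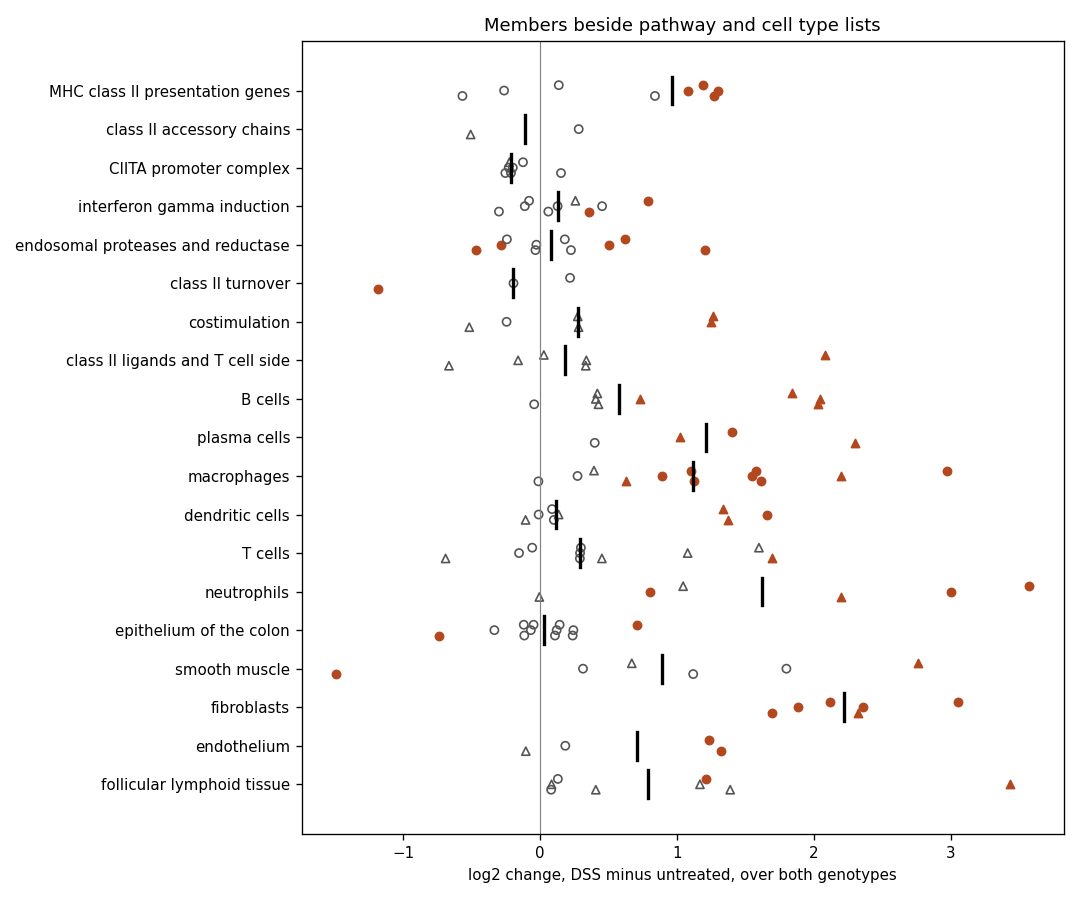
Each point is 1 gene, by its log2 change after DSS over both genotypes (horizontal axis), for the 8 measurable members and for each list (vertical axis). Filled points passed at an adjusted p of 0.05, triangles were not well above background on all 16 arrays, and the vertical bars are list medians, which reach 2.22 for fibroblasts, 1.11 for macrophages and 0.96 for the members.

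Of the cell types that carry class II, macrophages had most of their markers higher after DSS. Of 12 macrophage markers 9 passed as higher after DSS and 0 as lower, with a median of 1.11. Lyz2, the macrophage lysozyme, rose by 2.97 (adjusted p = 1.38e-05) and the defining marker Cd68 by 1.61 (adjusted p = 3.66e-05). The integrin gene Itgam also passed and was well above background on 4 arrays. The defining marker Adgre1 rose by 0.63 (adjusted p = 0.0273), whereas Csf1r differed by 0.27 (adjusted p = 0.410). The summed macrophage signal, as a multiple of each array's 75th percentile, was 12.6 to 15.3 in untreated and 17.4 to 35.3 in DSS-treated wildtype rats. In Pirc rats it was 15.7 to 20.2 without DSS and 26.7 to 30.6 after DSS. Their part in the class II result was not tested.

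Of 8 measured B cell markers 4 passed as higher (median 0.58) and 0 as lower. The defining markers Ms4a1 and Cd79a had no matched probe. Fcer2, a B cell receptor for IgE, rose by 2.03 (adjusted p = 0.000282) and was well above background on 15 arrays, and Cd79b, which also passed, was so on 6. The summed B cell signal was 0.484 to 0.732 in untreated and 0.497 to 1.0 in treated rats. Of 8 measured dendritic cell markers 3 passed as higher (median 0.12), of which Sirpa, which macrophages also carry, rose by 1.66 (adjusted p = 3.88e-05). The others, Batf3 and Clec9a, were well above background on 6 and 0 arrays. The defining dendritic marker Zbtb46 differed by -0.01 (adjusted p = 0.970), and Itgax and Flt3 had no matched probe. The summed dendritic signal was 0.261 to 0.416 in untreated and 0.372 to 0.751 in treated rats. The part of either cell type was not tested.

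Markers of some other cells moved as well. All 6 fibroblast genes passed as higher, with a median of 2.22, and the summed signal was 1.36 to 2.65 in untreated and 2.55 to 14.6 in treated rats. Of 6 measured neutrophil genes 4 passed as higher, of 4 measured plasma cell genes 3, of 4 measured endothelial genes 2, of 8 genes of follicular lymphoid tissue 2 and of 10 T cell genes 1. Of 12 measured epithelial genes 1 passed as higher and 1 as lower, with a median of 0.03, and of 6 smooth muscle genes 1 each way. Of all probes, 10.2% passed as higher and 6.99% as lower, and the T cell and epithelial counts were near these shares. The epithelial sum was 640 to 778 in untreated and 693 to 843 in DSS-treated wildtype rats. In Pirc rats it was 496 to 687 without DSS and 468 to 601 after DSS. Among DSS-treated rats, 6 of the 12 epithelial genes passed as lower in Pirc than in wildtype rats and 0 as higher. Of all probes, 8.76% were lower and 9.47% higher by p alone in that comparison. Which cells carried the class II transcripts was not tested.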

How the data were processed

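The authors deposited one Agilent Feature Extraction (10.7.3.1) file per array. The deposited intensity used is the linear spot signal from which Feature Extraction had subtracted background, per the file headers, and no scaling between arrays had been applied. Of 62976 spots, 4259 controls and spots with an outlier flag were left out. Intensities were divided by each array's 75th percentile (group medians 1221.5 to 1980.2), log2 transformed and averaged per probe. SystematicName accessions were matched to RefSeq (18006 of 30367 probes; the other 12361 entered the tests unnamed). One mean per group was fitted with limma 3.58.1 in R 4.3.3 over 16 arrays, and 7 contrasts were tested, with a factor of 2 and an adjusted p of 0.05 as in the study's methods. Per the submitters' processing notes Partek was used, with its role not given in the sources used here; its output was not used. All 9 members are named. Lists are given by counts, with up to 3 passed genes each way and defining markers. Irf1, Marchf1, Marchf8, Cd80, Cd86, Cd4 and Lag3 were added for their roles with their values known. The members and lists were chosen with earlier results of these data known. Each array is a separate rat; no pair of arrays was identical (highest r 0.9928). The number of arrays limits precision. Pipelines were tested on simulated data. Alternatives were quantile normalization, normexp (offset 50), dim-probe filter and floor, outlier spots kept, slide and row blocks, no moderation, no minimum change, gene averages, compared groups only, and each rat left out.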

Additional observations from a re-analysis of the deposited data

How the results depend on the processing

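Over both genotypes the 4 chain genes were called under every alternative run, and their log2 changes stayed between 1.01 and 1.36. In Pirc rats 3 to 4 genes were called with 1 rat left out, and in wildtype rats 1 to 4, with 2 where only the compared groups were fitted. For the other comparisons the count stayed at 0 with each rat left out. With no minimum change, 1 gene (Ctss) was counted for the Pirc effect, both over all rats and, again 1, after DSS. Of 856 values of single members under alternatives, 827 kept their direction and their side of the threshold, 12 no longer passed, 7 newly passed and 10 turned sign. All 10 were small differences with 1 rat left out. The difference of Ciita between DSS-treated genotypes (main value -0.06) ranged from -0.31 to 0.23 and was 0.13 without rat 12, 0.025 without 14, 0.17 without 20 and 0.23 without 26. The DSS difference of RT1-DMb in Pirc rats (0.04) was -0.017 without rat 15, -0.098 without 16, -0.039 without 19 and -0.024 without 24. In wildtype rats (0.23) it ranged from -0.070 without rat 26 to 0.43 without rat 18, and over both genotypes (0.14) it was -0.013 without rat 26. Ctss over both genotypes (-0.26) passed without rat 23 or 24 (-0.32 each), and RT1-Db1 between DSS-treated genotypes (0.50) passed with a common floor (adjusted p = 0.0474).

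With normexp, 725 probes were called in place of 1819 for DSS over both genotypes, 1148 in place of 2265 in Pirc, 240 in place of 841 in wildtype rats, 195 in place of 606 between genotypes over all rats and 784 in place of 1660 for the Pirc effect after DSS. In untreated rats 1 probe was called in place of 0, and for the difference between the DSS effects 31 in place of 13, while the median change of all probes was 0.15 in place of 0.06. With quantile normalization that median was -0.06, and higher probes made up 73.8% of those called for DSS over both genotypes (83.5% as reported), 63.2% in Pirc (73.8%) and 72.6% in wildtype rats (85.5%). Fitting only the compared groups left 402 called probes for DSS in wildtype rats and 1018 for Pirc after DSS, and the former was 375 without rat 14, 456 without 17, 446 without 18 and 503 without 21, while the latter was 1024 without rat 20. A common floor left 1203 for DSS over both genotypes and 548 in wildtype rats, and averaging the probes of a gene left 1121, 1408 in Pirc rats, 350 (in place of 606) for the Pirc effect over both treatments and 966 for Pirc after DSS. Groups could not be paired within an animal, because each rat belonged to a single group. With slide and array row as blocks, each combination of which held 1 rat of every group, the count of member genes called stayed the same in all 7 comparisons. Probes near background, such as that of RT1-Ba, limit what can be measured.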
